A study of Tetranychus urticae with 5 samples.

Results

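The ABCG transporter genes of the spider mite Tetranychus urticae were examined in strains that resist spirodiclofen, an acaricide that blocks acetyl-CoA carboxylase and with it fatty acid synthesis. The members were all gene names on the array whose symbol contains ABCG or ABCH, leaving out symbols that start with p. That gave 19 of 19601 gene names, TuABCG-01 to TuABCG-17 and a pair of names marked as incomplete by the array, ABCGinc-01 and ABCGinc-02. No name used here contains ABCH, so that subfamily was not analysed here and the 2 subfamilies could not be set side by side. In the comparisons below, 18 of the 19 ABCG members were tested.

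The groups were SR-TK, kept under 1000 mg/L spirodiclofen (2 arrays), SR-VP, kept under 5000 mg/L (3 arrays), and LS-VL, kept without the compound. All were female deutonymphs, the last stage before the adult, reared on kidney bean, and each extract pooled about 200 mites. Each array held RNA of a resistant strain labelled with Cy5 and RNA of LS-VL labelled with Cy3, with no swap of the dyes, so a dye bias of a gene and a strain difference cannot be told apart. The labels call the arrays of a strain biological replicates. They leave unsaid if every array had its own LS-VL extract, and without that the p-values lack the spread of LS-VL. Each strain stands for its own origin as well as for its selection, and these cannot be told apart either.

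ABC transporters use ATP to move molecules across membranes. An ABCG protein has a single ATP-binding domain placed ahead of a single membrane domain, where a full transporter has a pair of each, and it works only as a dimer with itself or with another member. In Drosophila, the ABCG proteins white, scarlet and brown bring pigment precursors into the granules of the eye, and the ABCG gene E23 responds to the moulting hormone ecdysone. In mammals, ABCG members move sterols and ABCG2 exports a wide range of foreign compounds. None of these roles has been assigned here to a mite member, and the names below say only to which subfamily the array's annotation put a gene. In RNA of whole mites, fewer cells of a type and less RNA per cell cannot be told apart.

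The spots well above background made up 54.3% to 75.9% of all non-control spots in the resistant strains and 59.2% to 71.5% in LS-VL, no spot was saturated, and all 5 arrays lay on 1 slide. SR-VP replicate 3 had the lowest share in both channels. Across genes, the correlation of log2 ratios was 0.59 for the pair of SR-TK arrays and 0.66 to 0.81 for pairs of SR-VP arrays. Pairs of an SR-TK array with an SR-VP array had 0.48 to 0.67. The SR-TK arrays thus resembled each other no more than they resembled SR-VP arrays.

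Most members gave a signal in all 3 strains. In the resistant strains 17 and 18 of 19 members had at least 1 of their 3 probes well above background on SR-TK replicates 1 and 2, and 17, 18 and 12 on SR-VP replicates 1, 2 and 3. In LS-VL on the same arrays the counts were 17 and 18, then 17, 18 and 13. Over all gene names that share lay between 79.6% and 81.8% in the resistant strains and between 73.9% and 77.8% in LS-VL, and at 64.2% and 67.3% on SR-VP replicate 3. All gene names thus dropped on that array too, but the members dropped further. There 63.2% of members were above background in SR-VP and 68.4% in LS-VL, against 89.5% to 94.7% on the other arrays. With every probe on every array and in both channels, 7 members were above background, TuABCG-01, TuABCG-09, TuABCG-10, TuABCG-13, TuABCG-16, TuABCG-17 and ABCGinc-02, against 40.1% of all gene names.

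**Figure D1:**
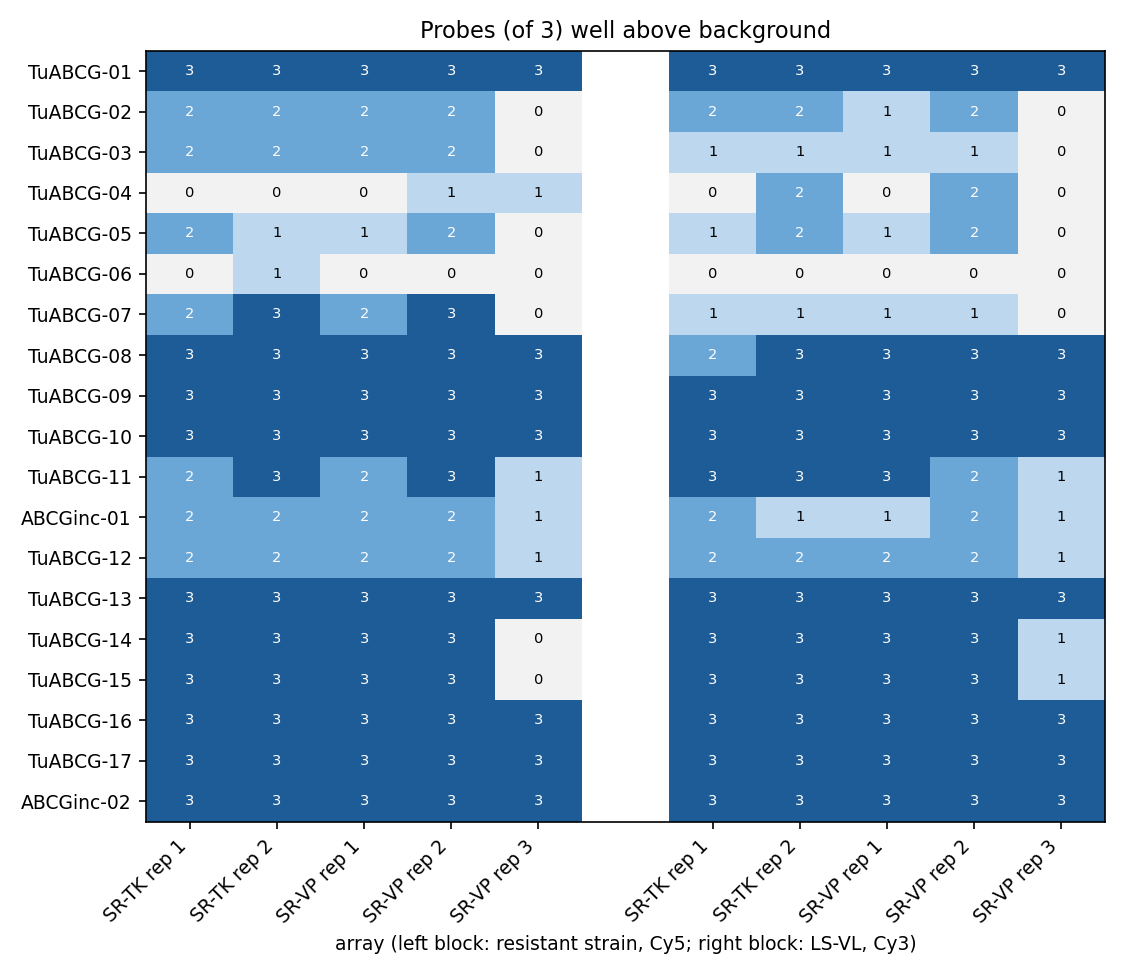
Number of the 3 probes of each ABCG member (rows, in the order of scaffold and gene number) that were well above background on each array, in the resistant strain (left block) and in LS-VL (right block). TuABCG-06 has 1 probe above background in 1 cell only, and SR-VP replicate 3 is the emptiest column in both blocks.

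The dimmest member was TuABCG-06, which had 1 of 3 probes above background in SR-TK replicate 2 and none on the other arrays or anywhere in LS-VL. Its signal was 72.1 and 75.4 intensity units in SR-TK, 73.6, 70.6 and 70.7 in SR-VP, and between 65.5 and 73.6 in LS-VL. No probe passed the filter, so it was not tested and its values give no fold. TuABCG-07 and TuABCG-03 came next, with mean LS-VL signals of 85.2 and 91.9. The brightest were ABCGinc-02 with 10437, TuABCG-16 with 1948 and TuABCG-10 with 1257 units. Probes bind with different strength, so these signals tell which measurements are firm and do not rank transcript levels between genes.

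The first question was whether the resistant strains hold more or less of these transcripts than LS-VL. No member passed the test in either strain (limma, an adjusted p under 0.05 by Benjamini-Hochberg over 15861 genes, together with a log2 ratio of 1 or more in either direction). The smallest adjusted p was 0.0689 in SR-TK and 0.0641 in SR-VP, both from TuABCG-10, and log2 ratios of the 18 members lay between −0.42 and 0.58 in SR-TK and between −0.26 and 0.45 in SR-VP. Of all genes tested, 2.28% were called in SR-TK and 1.95% in SR-VP, so that 0 of 18 members lay near the background.

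The adjusted p alone also called 0 of 18 members in each strain, beside 8.34% of all genes in SR-TK and 11.3% in SR-VP. At an unadjusted p under 0.05, 2 of 18 members passed in SR-TK, TuABCG-10 and TuABCG-09, and 2 of 18 in SR-VP, TuABCG-10 and TuABCG-05. The same rule took 25.2% of all genes in SR-TK and 26.9% in SR-VP. The members had a median log2 ratio of −0.02 in SR-TK, with 9 higher and 9 lower than LS-VL, and of 0.05 in SR-VP, with 10 higher and 8 lower. With median centring of the arrays the member median in SR-TK turned to 0.13, where that of all genes was 0.22. With only probes bright on every array, the member median was 0.18 in SR-TK and 0.19 in SR-VP. That of all genes was 0.01 in both. This filter left 11 members, TuABCG-01, TuABCG-08 to TuABCG-13, TuABCG-16, TuABCG-17, ABCGinc-01 and ABCGinc-02. The members it left out had mean LS-VL signals of at most 146 units. TuABCG-11 and TuABCG-12 then rested on probe 2 alone (0.44 and 0.34 in SR-TK, 0.34 and 0.28 in SR-VP). The SR-VP median was the value of TuABCG-16, whose arrays gave −0.36, 0.60 and 0.32. These medians are therefore not read as a shift of all members. With loess and the usual filter the median over all genes was 0.02 in SR-TK and below 0.01 in size in SR-VP. In absolute size, the median log2 ratio was 0.14 in SR-TK for members and for all genes alike, and 0.09 in SR-VP for members beside 0.12 for all genes.

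The 95% interval of the log2 ratio lay wholly between −1 and 1 for 15 of 18 members in SR-TK and for 16 of 18 in SR-VP, beside 92.7% and 94.9% of all genes. For dim members these intervals depend on the offset of 50 added to the signals, which draws ratios toward 0. On processed signals, which differ in more than the offset, the log2 ratio of TuABCG-05 in SR-VP was −1.03, outside its interval of −0.47 to −0.04. That of TuABCG-04 in SR-TK was −0.91, outside its interval of −0.82 to 0.23, but no probe of TuABCG-04 was well above background in SR-TK. The members whose interval reached past this band in SR-TK were TuABCG-01, TuABCG-16 and TuABCG-17, and in SR-VP TuABCG-01 and TuABCG-16.

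**Figure D2:**
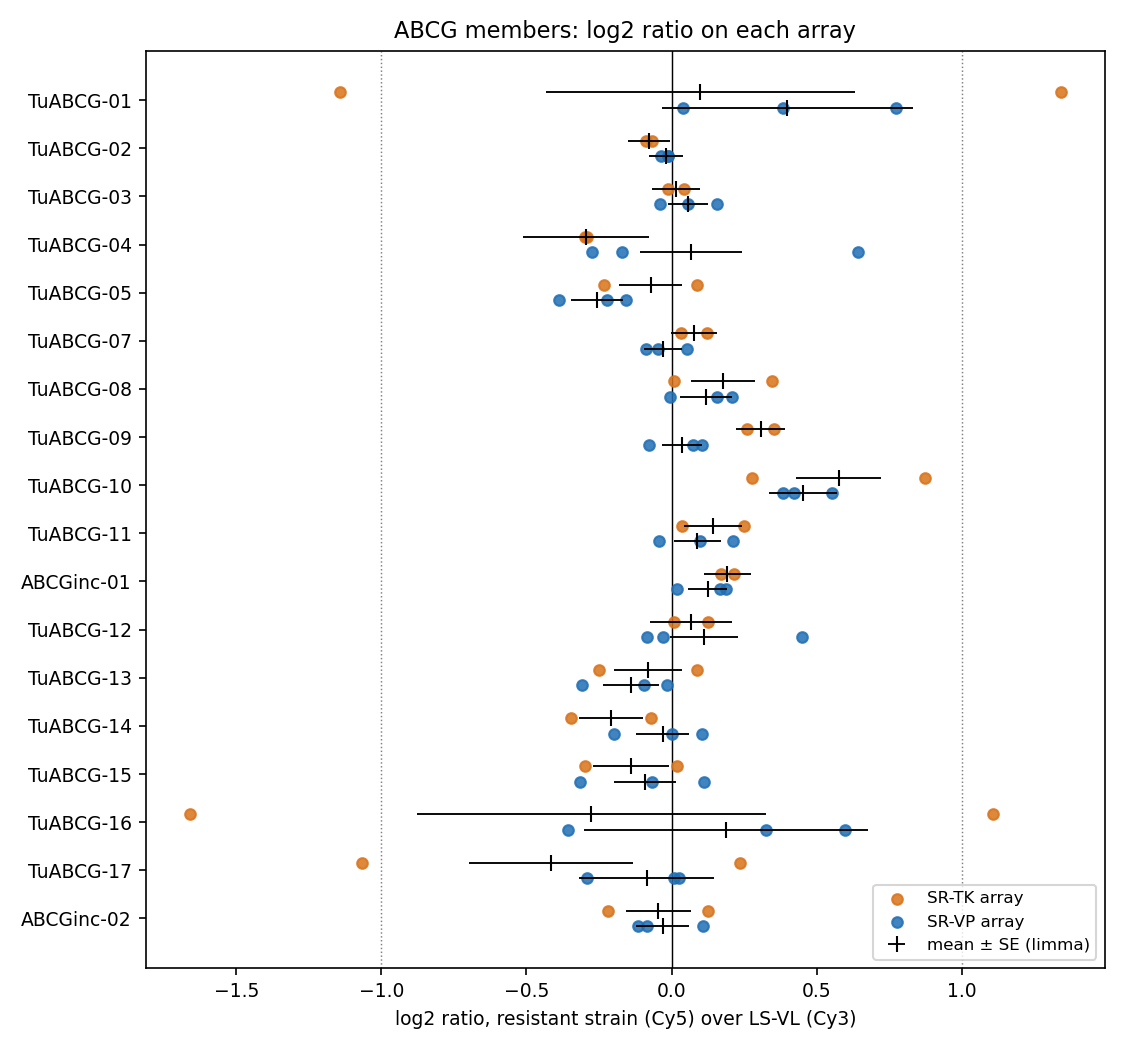
Log2 ratio of the resistant strain over LS-VL for the 18 tested members on each SR-TK array (orange) and each SR-VP array (blue), with the mean and limma's standard error in black and dotted lines at −1 and 1. Most members sit near 0, while TuABCG-01, TuABCG-16 and TuABCG-17 have their 2 SR-TK arrays far apart, on either side of 0.

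The member with the lowest adjusted p in both strains was TuABCG-10, which was higher than LS-VL on every array. Its signal was 2862 and 970 units in SR-TK and 2072, 2281 and 1363 in SR-VP, against 1562 and 800 in LS-VL on the SR-TK arrays and 1546, 1556 and 1044 on the SR-VP arrays. Within each array the resistant strain was thus the brighter one, although the signals of the strains overlap across arrays. The log2 ratios were 0.87 and 0.28 in SR-TK and 0.42, 0.55 and 0.38 in SR-VP.

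The fitted log2 ratio of TuABCG-10 was 0.58 ± 0.15 in SR-TK (SE, n = 2 arrays; 95% interval 0.22 to 0.93), or 1.49-fold, with adjusted p = 0.0689 in limma. In SR-VP it was 0.45 ± 0.12 (SE, n = 3 arrays; 95% interval 0.16 to 0.74), or 1.37-fold, with adjusted p = 0.0641 in limma. All 3 of its probes were higher in both strains, and their mean log2 ratios spanned only 0.10 in SR-TK and 0.06 in SR-VP. The values miss the test. Over the alternatives the adjusted p ranged from 0.00967 to 0.293 in SR-TK and from 0.0163 to 0.280 in SR-VP, where the log2 ratio of 0.40 to 0.73 was never large enough for a call. Centring each array on its median in place of loess called TuABCG-10 in SR-TK, at a log2 ratio of 1.04 (adjusted p = 0.00967), while the median of all genes moved up to 0.22. In SR-TK the 2 arrays differed by over 1.5 times: the log2 ratio was 0.28 without replicate 1 (adjusted p = 0.293) and 0.87 without replicate 2 (adjusted p = 0.027).

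The signal of TuABCG-10 differed between arrays mainly through 1 of its probes. Probe 1 read 2017 and 133 units in SR-TK replicates 1 and 2, against 1061 and 116 in LS-VL, and 1523, 1678 and 391 in SR-VP, against 1101, 1185 and 296 in LS-VL. It was thus low in both channels of SR-TK replicate 2 and of SR-VP replicate 3, where the other 2 probes were not. Probe 2 of the next gene by number, TuABCG-11, was low in both channels of the same arrays. It read 897 and 453 in SR-TK, against 672 and 327 in LS-VL, and 686, 911 and 467 in SR-VP, against 592, 704 and 348 in LS-VL. The ratios of these probes stayed above 0 on every array.

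Of the members that were higher in 1 strain, TuABCG-09 had log2 ratios of 0.35 and 0.26 in SR-TK and of −0.08, 0.10 and 0.07 in SR-VP, with no overlap between the strains. The fitted ratio was 0.31 ± 0.08 in SR-TK (adjusted p = 0.0857 in limma) and 0.03 ± 0.07 in SR-VP. With median centring the SR-TK value was 0.73 (adjusted p = 0.0053), still under the log2 ratio of 1 needed for a call. Its probe 3 read lower than the others, with mean log2 ratios of 0.08 in SR-TK and −0.29 in SR-VP, against 0.41 and 0.43 in SR-TK and 0.22 and 0.17 in SR-VP for probes 1 and 2.

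ABCGinc-01, a name the array marks as incomplete, was higher than LS-VL on all 5 arrays, at 0.17 and 0.21 in SR-TK and 0.17, 0.19 and 0.02 in SR-VP. Its fitted log2 ratios of 0.19 ± 0.08 in SR-TK and 0.12 ± 0.07 in SR-VP did not pass (adjusted p of 0.213 and 0.301). TuABCG-02 was lower on all 5 arrays, but by no more than 0.09 on any of them. In all, 2 of 18 members were higher on every array and 1 was lower, beside 16.3% and 15.8% of all genes tested.

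TuABCG-05 had the lowest fitted log2 ratio in SR-VP, −0.26 ± 0.09 (adjusted p = 0.13 in limma), with −0.22, −0.39 and −0.16 on the 3 arrays. In SR-TK its 2 arrays gave 0.09 and −0.23, on either side of 0. It rests on 1 dim probe, with signals of 98.5 and 86.3 in SR-TK and 81.8, 79.7 and 80.2 in SR-VP, against 92.7 and 101 in LS-VL on the SR-TK arrays and 95.5, 104 and 89.5 on the SR-VP arrays. On the scanner's processed signals, to which no offset is added, its log2 ratio in SR-VP was −1.03 and it was called (adjusted p = 0.0408 in limma). That was the largest value over the alternatives. It was −0.51 with median centring, −0.48 with an offset of 10 and −0.29 without background correction, where no offset is added either. None of these values was large enough for a call.

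TuABCG-13 was lower on all 3 SR-VP arrays, with log2 ratios of −0.31, −0.02 and −0.09. The fitted value of −0.14 ± 0.10 became −0.06 without SR-VP replicate 1 and 0.10 with median centring. TuABCG-14 was lower on both SR-TK arrays, at −0.07 and −0.35 (−0.21 ± 0.11, adjusted p = 0.305 in limma), and leaving out either array gives the value of the other. With the median of its probes in place of the mean its ratio was −0.12. Neither passed the test. For TuABCG-04 no probe was well above background in SR-TK on either array, and in LS-VL only the second of those arrays had any. Its measured means of 81.1 units in SR-TK and 99.5 in LS-VL (adjusted p = 0.452 in limma) are therefore given without a fold. The log2 ratios of TuABCG-04 in SR-TK given elsewhere rest on these dim signals and are not to be read as a fold either.

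The largest differences among the members were found between the 2 SR-TK replicates. TuABCG-01, TuABCG-16 and TuABCG-17 were well below LS-VL in SR-TK replicate 1 and above it in SR-TK replicate 2; they were singled out after their values were seen. Their SR-TK ratios differed by 2.49, 2.77 and 1.30 on the log2 scale, while the other 15 tested members differed by at most 0.60 (TuABCG-10).

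TuABCG-16 showed the widest gap. It read 866 and 2868 units in SR-TK replicates 1 and 2, against 2737 and 1332 in LS-VL, and 2411, 1959 and 2405 in SR-VP, against 3088, 1296 and 1920 in LS-VL. SR-TK replicate 1 was the lowest of the 5 resistant extracts and SR-TK replicate 2 the highest, while the LS-VL channel was high on both replicate 1 arrays and low on both replicate 2 arrays. The log2 ratios were −1.66 and 1.11 in SR-TK and −0.36, 0.60 and 0.32 in SR-VP.

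TuABCG-01 followed the same order. It read 541 and 1696 units in SR-TK, against 1194 and 669 in LS-VL, and 1530, 1191 and 1453 in SR-VP, against 1489, 697 and 1114 in LS-VL. The log2 ratios were −1.14 and 1.34 in SR-TK and 0.04, 0.77 and 0.38 in SR-VP, so that in SR-VP the gene was above LS-VL on all 3 arrays (0.40 ± 0.43, adjusted p = 0.607 in limma).

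TuABCG-17, which lies on the same scaffold as TuABCG-16, was low in SR-TK replicate 1 only. It read 138 and 331 units in SR-TK, against 289 and 281 in LS-VL, and 309, 272 and 266 in SR-VP, against 379, 268 and 264 in LS-VL. Its log2 ratios were −1.07 and 0.23 in SR-TK and −0.29, 0.02 and 0.01 in SR-VP. Its LS-VL channel was brightest on SR-VP replicate 1.

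**Figure D3:**
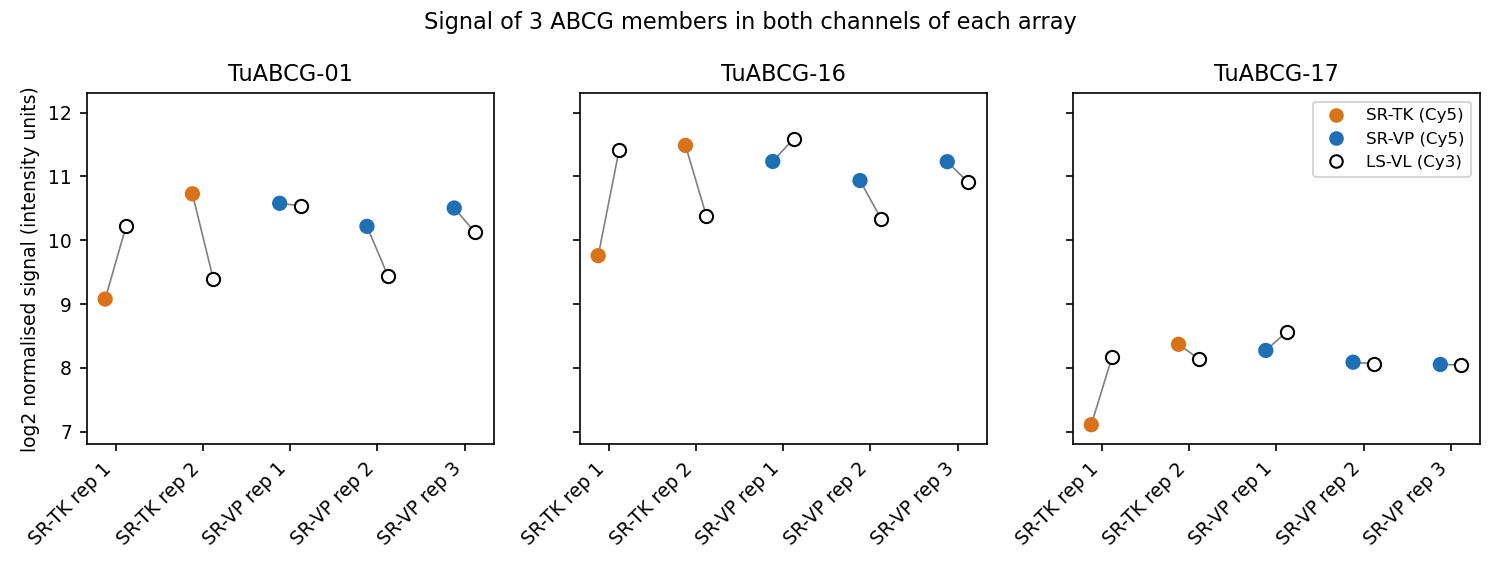
Normalised signal (log2 of intensity units) of TuABCG-01, TuABCG-16 and TuABCG-17 on each array, with SR-TK in orange, SR-VP in blue and LS-VL of the same array as an open circle joined to it. In all 3 genes SR-TK replicate 1 is the lowest and SR-TK replicate 2 the highest of the 5 resistant extracts.

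All 9 probes of these 3 genes were lower in SR-TK replicate 1 than in replicate 2, with gaps between 1.24 and 2.80. Over the settings, the gap was 2.36 to 2.76 for TuABCG-01, 2.59 to 2.89 for TuABCG-16 and 1.28 to 1.95 for TuABCG-17. Only changes of background correction, loess or probe summary altered it. Settings that changed the probe filter, the normalization between arrays or the SR-VP arrays used returned the same values, so they add no support. A gap of at least 2 was found in 68 of 15861 genes (0.429%), 2 of them members, and a gap of at least 1 in 422 genes (2.66%), 3 of them members. The median gap was 0.30 for the members and 0.15 for all genes, whereas the SD over the 3 SR-VP arrays had a median of 0.12 for the members and 0.13 for all genes.

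The SR-TK mean of these genes therefore depended on the array. Fitted to both arrays, the log2 ratio was 0.10 ± 0.53 for TuABCG-01 (adjusted p = 0.932 in limma), −0.28 ± 0.60 for TuABCG-16 (0.821) and −0.42 ± 0.28 for TuABCG-17 (0.418). Without SR-TK replicate 1, the log2 ratio was 1.34 for TuABCG-01, 1.11 for TuABCG-16 and 0.23 for TuABCG-17. Without SR-TK replicate 2, it was −1.14 for TuABCG-01, −1.66 for TuABCG-16 and −1.07 for TuABCG-17. In these fits the lone SR-TK array is taken to vary like the SR-VP arrays, so no call is drawn from them.

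Because an ABCG gene of Drosophila responds to ecdysone, the P450s of ecdysteroid synthesis were read beside this gap. All 4 on the array, CYP307A1, CYP302A1, CYP315A1 and CYP314A1, were tested and 0 were called in either strain, also by the adjusted p alone. Of these, CYP315A1, whose counterpart in Drosophila (shadow) makes ecdysone, had the widest gap. It read 683 and 1384 units in SR-TK replicates 1 and 2, against 628 and 764 in LS-VL, with log2 ratios of 0.12 and 0.86 and a gap of 0.73. The other 3 went the opposite way, with a lower log2 ratio in SR-TK replicate 2. CYP302A1 had −0.07 and −0.19 in SR-TK replicates 1 and 2, CYP307A1 had 0.03 and −0.27, and CYP314A1 had 0.17 and −0.21. In SR-VP, CYP315A1 read 1359, 957 and 1345 units. SR-TK replicate 1 was thus its lowest resistant extract and SR-TK replicate 2 its highest, as in the 3 ABCG genes. The other 3 P450s did not have this order. The part of ecdysone or of moulting stage in the gap was not tested, and no marker of stage or tissue is among the names used here.

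The array also holds plain gene numbers without a symbol, and 17 of the 19 member numbers occur there too. The files do not say whether both name the same gene. Of these plain names 14 were tested, and 0 of them had a gap of at least 1 between the SR-TK arrays, the largest being 0.67. In SR-TK replicates 1 and 2, the plain name with the number of TuABCG-01 gave log2 ratios of −0.31 and 0.29 and that of TuABCG-17 gave −0.56 and 0.02, in the order of their members but with smaller gaps. That of TuABCG-16 gave 0.10 and −0.28, in the opposite order to its member. That of TuABCG-10 gave −0.31 and −0.42, opposite in sign to the member. The member values above come from the probes that carry the symbol.

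The difference between the resistant strains was tested as SR-TK minus SR-VP, from which any dye bias shared by the 5 arrays drops out. Of 18 members 0 were called, beside 0.214% of all genes, and 0 by the adjusted p alone (0.252% of all genes). At an unadjusted p under 0.05 only TuABCG-09 passed, beside 9.12% of all genes. Its difference was 0.27 ± 0.11 (adjusted p = 0.531 in limma). The differences lay between −0.46 (TuABCG-16) and 0.27, with a median of −0.03, and 14 of 18 had a 95% interval wholly between −1 and 1, beside 93.4% of all genes. The intervals of TuABCG-01, TuABCG-04, TuABCG-16 and TuABCG-17 reached past this band.

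In 3 members, TuABCG-02, TuABCG-04 and TuABCG-09, the arrays of SR-TK and of SR-VP did not overlap, beside 27.2% of all genes. TuABCG-04 had −0.30 and −0.29 in SR-TK and −0.17, −0.27 and 0.64 in SR-VP, a difference of −0.36 ± 0.28. That difference came mainly from SR-VP replicate 3, where the single probe kept read 198 units in SR-VP, against 71.0 to 84.5 in the other resistant extracts. The probe passed the filter only through SR-VP, where replicates 2 and 3 were well above background, while neither SR-TK array was. Without SR-VP replicate 2 or replicate 3 it did not pass. The lack of overlap for TuABCG-04 is therefore no evidence of a strain difference. The difference for TuABCG-02 was −0.06 ± 0.09.

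By the numbers in their names, the members lie on 9 scaffolds, and 7 of them form a run on scaffold 9 within 11 gene numbers. In order these are TuABCG-08, TuABCG-09, TuABCG-10, TuABCG-11, ABCGinc-01, TuABCG-12 and TuABCG-13. The median log2 ratio of the run was 0.18 in SR-TK and 0.11 in SR-VP, with 6 of 7 members higher than LS-VL in each strain and TuABCG-13 lower in both (with median centring its SR-VP ratio was 0.10). The other 11 tested members had medians of −0.08 in SR-TK and −0.03 in SR-VP, with 3 and 4 of them higher. Over all genes the median was 0.02 in SR-TK and below 0.01 in size in SR-VP. The other 11 include the dimmest tested members, whose ratios the offset draws toward 0. They also include TuABCG-01, TuABCG-16 and TuABCG-17, whose SR-TK arrays lie far apart. The difference between the run and these members was not tested. None of the 7 passed the test, and whether a probe of 1 member also binds transcripts of its neighbours was not tested.

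The remaining members of the run had small values. TuABCG-08 had a log2 ratio of 0.18 ± 0.11 in SR-TK and 0.12 ± 0.09 in SR-VP, TuABCG-11 had 0.14 ± 0.10 in SR-TK and 0.09 ± 0.08 in SR-VP, and TuABCG-12 had 0.07 ± 0.14 in SR-TK and 0.11 ± 0.12 in SR-VP. Outside the run, TuABCG-14 lies next to the P450 gene CYP392A6 and ABCGinc-02 next to pABC-20. Neither neighbour was called. The log2 ratio of pABC-20 was 0.60 in SR-TK (adjusted p = 0.25) and 0.32 in SR-VP, beside −0.05 ± 0.11 in SR-TK and −0.03 ± 0.09 in SR-VP for ABCGinc-02.

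**Figure D4:**
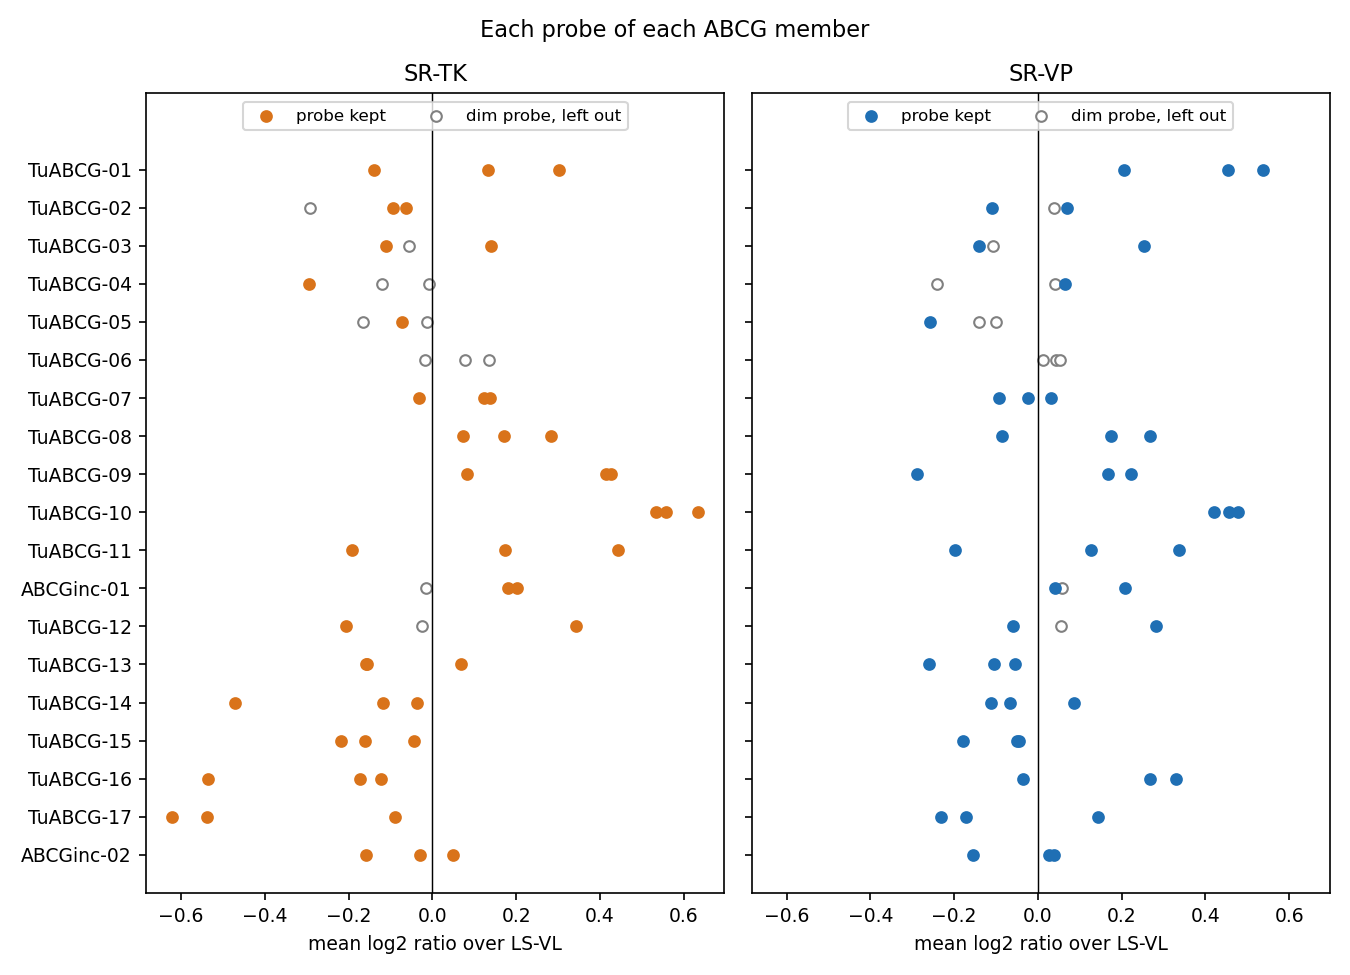
Mean log2 ratio over LS-VL of each probe of each ABCG member in SR-TK (left) and SR-VP (right), with filled points for probes kept and open points for dim probes left out. The 3 probes of TuABCG-10 lie together above 0 in both strains, while those of TuABCG-11 and TuABCG-12 fall on either side of 0.

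The probes of a member were compared with each other. Among the 12 members with 3 probes kept, the median range over the probes was 0.29 in SR-TK and 0.27 in SR-VP, beside 0.18 and 0.17 over 13497 genes with 3 probes. The 3 probes had 1 sign in 7 of 12 members in SR-TK and in 4 of 12 in SR-VP, beside 65.0% and 61.1% of those genes; these differences were not tested. The ranges of TuABCG-07, TuABCG-10 and TuABCG-15 lay below the medians of all genes in both strains. TuABCG-07 and TuABCG-15 are dim, however (mean LS-VL signals of 85.2 and 134), and the offset draws such ratios toward 0. The probes of TuABCG-07 also lay on either side of 0 in both strains. The 3 widest ranges in SR-TK were those of TuABCG-11 (0.64, and 0.53 in SR-VP), TuABCG-12 (0.55 and 0.34, from 2 probes) and TuABCG-17 (0.53 and 0.37). In SR-VP the 3 widest were those of TuABCG-11, TuABCG-09 (0.51, and 0.34 in SR-TK) and TuABCG-03 (0.39 and 0.25, from 2 probes). The standard errors above come from arrays and do not hold this spread.

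The other ABC transporters on the array were set beside the ABCG members by subfamily. These include ABCA and ABCC full transporters, the ABCB and ABCD groups, the ABCE and ABCF proteins that act in translation rather than transport, and names starting with pABC. Of 10 ABCA, 3 ABCB, 41 ABCC, 2 ABCD, 1 ABCE, 3 ABCF and 35 pABC genes tested, 0 were called in either strain. By the adjusted p alone, 2 ABCC genes were higher in SR-TK, and 4 were higher and 2 lower in SR-VP. By the same rule 2 pABC genes were higher and 1 was lower in SR-TK, and 2 were higher and 2 lower in SR-VP. The widest gap between the SR-TK arrays was 1.71 in ABCA, 1.32 in ABCC, 1.13 in ABCB and 1.12 in pABC. These lie below the gaps of TuABCG-01 and TuABCG-16, while that of TuABCG-17 (1.30) lies below the widest of ABCA and ABCC. A gap of at least 1 was found in 4 ABCC genes and in 1 gene each of ABCA, ABCB and pABC.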

How the data were processed

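Per the file headers, the authors deposited for each spot the median foreground intensity and background intensity of both channels, processed intensities and a log10 ratio. Per the submitters' processing notes, the software was Agilent Feature Extraction 10.5. The log10 ratio served as a check (correlation 0.77 to 0.89 with the log2 ratios computed here).

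In limma 3.58.1 under R 4.3.3, background was corrected by normexp (offset 50), then each array was normalised by loess (control spots had weight 0) and the arrays were set to a common intensity by Aquantile. Outlier spots (874 values) were left out. Probes were kept where 1 channel lay well above background on 2 or more arrays of 1 strain, and the probes of a gene, up to 3, were averaged, giving 15861 genes. The fit had 1 coefficient per strain on all 5 arrays (3 residual and 3.07 prior degrees of freedom) and Benjamini-Hochberg adjustment over all genes. Errors are limma's standard errors. The fit was tested on simulated data.

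Named were members past the test, the 3 highest and 3 lowest with 1 direction on all arrays of a strain, the 3 brightest and 3 dimmest, the 3 with the widest probe range, undetected members and runs of neighbours. Members and lists were chosen with earlier results of these data known. The alternatives were other filters, background corrections, normalizations, probe summaries, variance estimates and array subsets. Depth does not apply; the number of arrays limits precision.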

Additional observations from a re-analysis of the deposited data

Results flagged for a closer look

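The LS-VL signal of 2 members stood apart on 1 of the 5 arrays by Dixon's test. It was run on 19 members and flags about 1 in 20 by chance. No share over all genes is given beside it, so the count is not read as a trait of the members. The test also takes the LS-VL signals as independent, and the labels leave unsaid if every array had its own LS-VL extract. TuABCG-09 had a log2 LS-VL signal of 8.80 on SR-VP replicate 2, below the 9.33 to 9.51 of the other arrays, and its SR-VP signal was also lowest there. TuABCG-17 had a log2 LS-VL signal of 8.56 on SR-VP replicate 1, above the 8.05 to 8.18 of the other arrays. The part of the LS-VL extracts in these values was not tested.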

How the results depend on the processing

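Over all alternatives and the 3 comparisons, 45 of 49 counts of called members were 0. The main fits called only 2.28% of all genes in SR-TK, 1.95% in SR-VP and 0.214% for SR-TK minus SR-VP. Among 18 members a count of 0 thus lies near the background in most settings, and some settings repeat the main ratios. The 45 counts are therefore no support for a lack of change. Processed signals called 1 member in SR-VP (TuABCG-05, lower) and median centring called 1 in SR-TK (TuABCG-10, higher). The remaining counts above 0 came from SR-TK fits with 1 SR-TK array left, from which no call is drawn. There the ratios of TuABCG-01, TuABCG-16 and TuABCG-17 were those of the lone array. With 1 SR-TK array left, the filter also asked for only 1 array of that strain. Of 216 values of named members under an alternative, 215 kept their direction. That count was largely fixed in advance and is no support for the directions. These members were named for 1 direction on all arrays of a strain, or for no overlap between the strains. Several alternatives, such as robust variance estimates or no normalization between arrays, also leave the ratio itself unchanged. The exception was TuABCG-13 in SR-VP, which turned to 0.10 with median centring (adjusted p = 0.55 in limma). The cause of these changes was not tested. With the replicate block, SR-TK minus SR-VP called 0 members and 2 of all genes, in place of 34; a slide row block, added after the data were seen, called 0 and 4. The strains share only replicate numbers 1 and 2 (correlation of deviations 0.37 and 0.16). Over all genes, SR-TK and SR-VP calls were 741 and 631 with processed signals, 565 and 483 with an offset of 10, and 753 (622 higher) and 430 (304 higher) with median centring, in place of 362 (220 higher) and 310 (178 higher); the fit to SR-TK arrays alone called 80. For SR-TK minus SR-VP they were 15, 53 and 77 (47 higher, against 18 of 34) in the same settings, 11 with probes bright on every array, and 0 to 13 without 1 array.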
